A study of Mus musculus with 52 samples.

Results

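CTCF peaks present in only 1 of 2 SmcHD1-deficient genotypes were examined: 8943 peaks found in germline null cells and not in somatic knockout cells (mut-only), and 10651 found in the knockout and not in the germline null (somKO-only). They were chosen from 2 lists of 57798 peaks each, in all 115596 peaks. The mut list was used whole, and the longer somKO list of 69736 peaks was cut to the same length by keeping the strongest scores. A peak was a member if it overlapped no peak of the other list by at least 1 bp.

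The mut cells were mouse embryonic fibroblasts (MEFs) homozygous for the MommeD1 point mutation of SmcHD1, which was inherited from 2 heterozygous parents. They came from 1 clone, Mut5A6, and their list merged 3 CTCF libraries. The somKO cells had lost SmcHD1 by CRISPR/Cas9 in culture, after X inactivation was complete. They came from 2 clones, A3-3 and D4, and their list merged 4 libraries. Both clones were derived from the wild-type line wt1A2, and both are triploid according to the study. All cells were female MEFs from an F2 cross of FVB with castaneus, in which X was kept from recombining and the autosomes mix both strains. The wild-type list used below as a further readout came from yet another clone, Wt2A1. The comparison asks whether CTCF lies at the same sites when the loss of SmcHD1 was inherited and when SmcHD1 was removed late. The clone, the strain mix of the autosomes and the number of libraries differ along with the route by which SmcHD1 was lost, and these cannot be told apart here. Each genotype has 1 list, so that no value has a replicate error, no test between genotypes was possible, and intervals cover counting error only.

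CTCF is a zinc finger protein that binds a long, asymmetric DNA motif. Cohesin, of which Rad21 is a subunit, extrudes chromatin loops and is halted by CTCF, so that both proteins are found together at the borders of topologically associating domains. SmcHD1 is a non-canonical SMC protein of the inactive X, where CTCF and cohesin binding is otherwise low. Some CTCF sites are bound in nearly every cell type, others vary with DNA methylation and cell state, and in the mouse many CTCF motifs were spread by transposable elements.

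Sequences of the strongest members illustrate how both directions differed. The first 6 are the 2 strongest autosomal members and the strongest X member of each direction that held the CTCF core motif and overlapped no peak of the other list as deposited. They are given 5′ to 3′ on the strand of the motif, which is in capitals, on GRCm38. They lie, in the order printed, at chr1:106711844-106711905 (minus strand), chr10:93539918-93539979 (plus), chrX:100730040-100730101 (plus), chr1:93846123-93846184 (plus), chr5:120252756-120252817 (plus) and chrX:111658837-111658898 (minus).
Bcl2 promoter, mut-only: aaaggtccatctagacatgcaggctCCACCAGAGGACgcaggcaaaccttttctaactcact
Amdhd1 promoter, mut-only: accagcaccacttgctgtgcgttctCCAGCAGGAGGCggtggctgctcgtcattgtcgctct
Gdpd2 promoter, mut-only: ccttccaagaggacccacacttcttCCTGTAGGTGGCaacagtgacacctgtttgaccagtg
D2hgdh intron, somKO-only: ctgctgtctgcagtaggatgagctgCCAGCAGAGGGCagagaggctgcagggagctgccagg
intergenic, nearest gene Rbm19, somKO-only: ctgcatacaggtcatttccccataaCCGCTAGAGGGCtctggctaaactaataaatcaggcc
Hdx intron, somKO-only: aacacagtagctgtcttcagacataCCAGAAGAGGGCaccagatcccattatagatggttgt

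The next stretch is the middle of the strongest mut-only promoter peak that held no core motif and whose central 120 bases lie outside annotated untranslated regions. It is at chr13:47014891-47015010, next to Nhlrc1, with its 12 CpG dinucleotides in capitals.
Nhlrc1 promoter, mut-only: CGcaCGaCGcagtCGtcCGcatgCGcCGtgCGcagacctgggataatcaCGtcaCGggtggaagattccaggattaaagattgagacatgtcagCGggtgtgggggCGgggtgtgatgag
In the Amdhd1 peak the motif lay 9 bp from the peak's midpoint and in the Gdpd2 peak 26 bp. In the Bcl2 peak, which is 1285 bp wide, it lay 484 bp away. The nearest gene start assigned to that peak, that of Bcl2, was 1.92 kb off, so its promoter class came from another transcript start.

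The members made up 15.5% of the mut list (mut-only) and 18.4% of the somKO list (somKO-only). Against the somKO list as deposited, 6023 mut-only peaks remained without a partner, or 10.4% of the mut list. Merging overlapping peaks of both lists gave 66442 sites, of which 46848 (70.5%) were shared.

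Members of both directions were weak peaks. The deposited score grows with the significance of a peak within its own list. The median mut-only peak stood at percentile 11.6 of its list, against 57.5 for shared peaks. The median somKO-only peak stood at percentile 15.6, against 59.1. The median width was 270 bp for mut-only peaks and 541 bp for shared peaks of the mut list. It was 282 bp for somKO-only peaks and 653 bp for shared peaks of the somKO list. Few strong peaks were found in 1 list only.

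By deciles of the score rank, the mut-only share fell from 68.1% in the weakest decile (66.9 to 69.3, 95% Wilson interval) to 0.0346% in the strongest, where it was 2 of 5777 peaks. The somKO-only share fell from 62.4% (61.2 to 63.7) to 0.0692%, or 4 of 5780 peaks. From decile 3 to decile 5 the somKO-only share was the larger, at 35.7%, 20.4% and 9.72%, against 22.0%, 11.6% and 5.21% for mut-only. The floor of both lists differed, since the cut ended the somKO list at a score of 118, where 40 of 58 tied peaks were kept, while the mut list reached down to 13. Of the mut-only peaks 5064 scored under 118. Among the 49960 mut peaks at or above that score, 3879 were mut-only, or 7.76%.

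**Figure D1:**
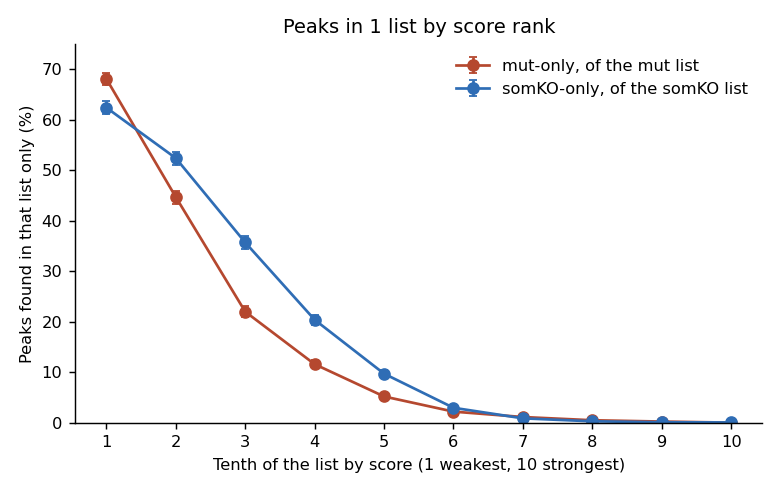
Share of peaks found in 1 list only (%), by decile of the score rank of that list, from the weakest (1) to the strongest (10). Points are shares and bars are 95% Wilson intervals; the curves start at 68.1% and 62.4%, and in the 5 strongest deciles no share is over 2.97%.

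Among genomic classes the 2 directions differed most at promoters. A peak was placed at a promoter if its midpoint lay within 1 kb of an annotated transcript start. Of the mut-only peaks, 3025 were at promoters, or 33.8% (32.9 to 34.8), against 17.6% of shared mut peaks (17.3 to 17.9). Of the somKO-only peaks, 880 were at promoters, or 8.26% (7.75 to 8.80), against 17.7% of shared somKO peaks (17.4 to 18.0). Mut-only peaks were thus at promoters more often than shared peaks, and somKO-only peaks less often. The same order was seen among weak peaks. In the weakest 30% of each list, the promoter share was 33.5% for mut-only and 14.8% for shared peaks of mut, and 8.51% for somKO-only and 21.1% for shared peaks of somKO.

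The other classes shifted with it. Intergenic peaks were 27.5% of mut-only and 42.3% of somKO-only peaks, against 37.0% and 36.9% of shared peaks. Introns held 34.3% of mut-only and 46.0% of somKO-only peaks, against 40.6% in both shared sets. Coding exons held 1.55% and 0.742%, and untranslated regions 1.59% and 1.31%.

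Mut-only peaks were rich in CpG dinucleotides and somKO-only peaks in repeats. The ratio of observed to expected CpG was at least 0.6, as in CpG islands, in 23.4% of mut-only peaks (22.5 to 24.2) and 2.39% of somKO-only peaks (2.12 to 2.70). In shared peaks it was so in 8.09% of the mut list and 8.15% of the somKO list. Among mut-only peaks at promoters, 1867 of 3025 were CpG-rich (61.7%), against 38.5% of shared promoter peaks of mut and 12.3% of somKO-only promoter peaks. The median GC content was 49.5% in mut-only and 43.5% in somKO-only peaks, with 45.9% and 45.7% in the shared sets.

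More than 50% of the sequence was soft-masked as repeat in the reference in 51.6% of somKO-only peaks (50.6 to 52.5). This was so in 24.6% of mut-only peaks, 20.8% of shared mut peaks and 18.4% of shared somKO peaks. In the weakest 30% of the somKO list the share was 54.5% for somKO-only and 37.7% for shared peaks. Within the mut list the order was the other way round, with 26.6% for mut-only and 44.7% for shared peaks of that rank. The repeat families were not identified here.

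The CTCF core motif was searched on both strands with at most 1 mismatch over its 12 positions. It was found in 65.1% of shared mut peaks and 67.1% of shared somKO peaks, against 9.49% and 11.4% of windows of the same width 2 kb away, as is known of CTCF peaks. It was found in 31.0% of mut-only peaks (30.1 to 32.0) and in 58.2% of somKO-only peaks (57.3 to 59.2), against 4.64% and 3.92% of the windows 2 kb away. Most mut-only peaks thus held no such motif. In mut-only peaks at promoters it was found in 465 of 3025, or 15.4% (14.1 to 16.7), and elsewhere in 39.0%. In somKO-only peaks it was found in 49.8% at promoters and 59.0% elsewhere.

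Because members are narrow, the search was repeated in the central 200 bp, an alternative chosen after seeing the data. The motif was then found in 26.4% of mut-only and 54.1% of somKO-only peaks, and in 37.8% and 37.0% of the shared peaks, with 2.43% to 2.75% in windows 2 kb away. In the centre, somKO-only peaks therefore held it more often than shared peaks did. Within the weakest 30% of the lists, the central share was 55.3% for somKO-only and 47.7% for shared peaks of somKO, and 26.7% for mut-only and 49.8% for shared peaks of mut. The order of both directions turned round with the short motif AGGNGGC. It was found in 34.3% of mut-only and 23.0% of somKO-only peaks, and in 17.8% and 14.7% of the windows 2 kb away. It requires G at a position where the core motif also allows A, so that it leaves out part of the core motif's sites. The printed somKO-only motifs and that of Bcl2 hold A there and do not match it, while those of Amdhd1 and Gdpd2 do. Of somKO-only peaks with the core motif, 66.1% were mostly repeat, and of mut-only peaks with it 54.7%. Without the motif these shares were 31.2% and 11.1%.

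Cohesin was less frequent at members than at shared peaks over all ranks. For mut-only peaks the order turned round among weak peaks with Rad21 of mut, but not with Rad21 of somKO. The deposited lists held 66031 Rad21 peaks in mut and 89974 in somKO. A Rad21 peak of mut overlapped 47.1% of mut-only peaks (46.0 to 48.1) and a Rad21 peak of somKO overlapped 56.0% of somKO-only peaks (55.1 to 57.0). At shared CTCF peaks these were 72.5% and 86.4%. In the weakest 30% of the mut list Rad21 of mut overlapped 43.4% of mut-only peaks and 2878 of 9586 shared peaks (29.1 to 30.9%). In the weakest 30% of the somKO list Rad21 of somKO overlapped 50.9% of somKO-only and 59.4% of shared peaks. The readouts of the other genotype were unlike. Mut-only CTCF peaks overlapped a Rad21 peak of somKO in 46.4% of cases, about the same share as in mut, against 85.8% of shared mut peaks. In the weakest 30% of the mut list these were 47.9% and 62.1%. SomKO-only CTCF peaks overlapped a Rad21 peak of mut in only 11.8% (11.2 to 12.4), against 73.7% of shared somKO peaks. In the weakest 30% of the somKO list these were 10.6% and 41.7%. The Rad21 lists were used here as deposited, at unequal length.

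At mut-only promoter peaks Rad21 was present in 77.9% in mut and in 69.8% in somKO, where no CTCF peak was listed after the cut. Away from promoters these shares were 31.3% and 34.5%. Mut-only peaks without the core motif overlapped Rad21 of mut in 55.5%, and those with it in 28.3%. For shared peaks the order was the other way round, with 69.7% without and 74.0% with the motif.

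The wild-type CTCF list overlapped 54.5% of somKO-only peaks (53.6 to 55.5) and 26.3% of mut-only peaks (25.4 to 27.2), against 94.2% and 93.6% of shared peaks. In the weakest 30% it overlapped 47.0% of somKO-only and 26.0% of mut-only peaks, and 73.3% and 77.3% of shared peaks. Most somKO-only peaks were thus also found in wild type, and most mut-only peaks were not. SmcHD1 peaks of wild type overlapped 2.36% of mut-only and 0.826% of somKO-only peaks, against 2.32% and 2.41% of shared peaks.

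**Figure D2:**
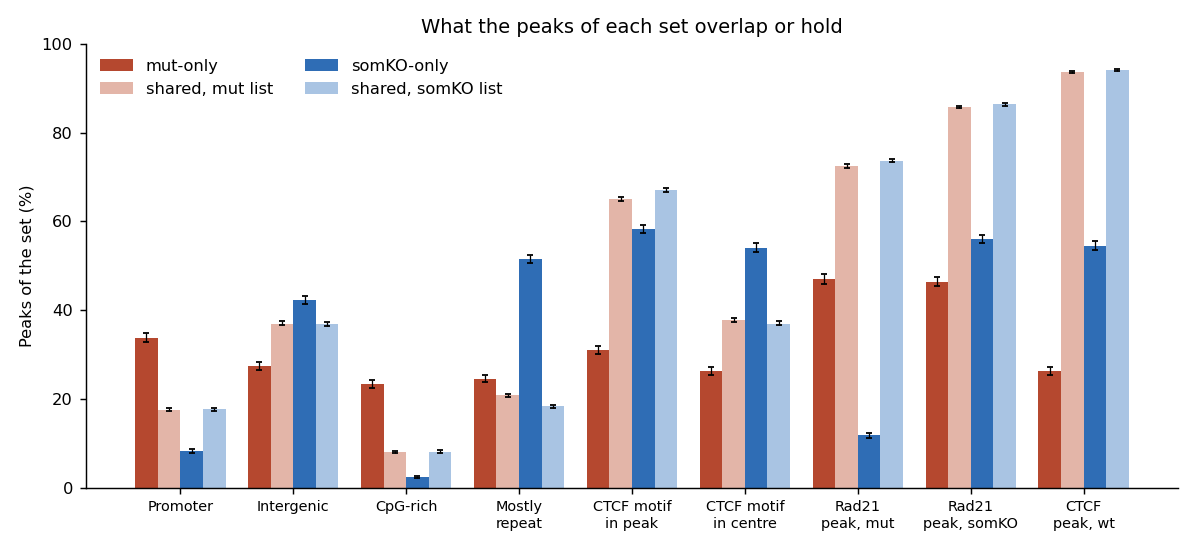
Share of peaks (%) at promoters, between genes, with a CpG ratio of at least 0.6, mostly repeat, with the CTCF core motif in the peak or its central 200 bp, and overlapping Rad21 peaks of mut or somKO or CTCF peaks of wt, for members and shared peaks of both lists, with 95% Wilson intervals. Mut-only peaks stand out at promoters (33.8%) and somKO-only peaks as mostly repeat (51.6%) and by their few Rad21 peaks in mut (11.8%).

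The strongest mut-only peaks were nearly all at promoters. Of the 8 strongest autosomal ones without any partner in the deposited somKO list, 7 were at a promoter, all 8 overlapped a Rad21 peak of mut, 2 one of somKO, 2 a CTCF peak of wild type, and 2 held the core motif. The strongest, at chr6:97148516-97149346 (percentile 91.4), lay at the start of Eogt, which encodes a glycosyltransferase of the endoplasmic reticulum. Next came the Nhlrc1 promoter shown above (chr13:47014466-47015435, percentile 88.1), whose gene encodes the ubiquitin ligase malin. The peak at Bcl2, the inhibitor of apoptosis, was at chr1:106711717-106713001 (percentile 86.6). Nhlrc1 and Bcl2 were those with Rad21 in somKO.

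Further promoter peaks lay at Lrrc7, which encodes a postsynaptic scaffold protein (percentile 84.5), and Erfe, which encodes the iron hormone erythroferrone (84.1). Others were at Amdhd1, an enzyme gene of histidine breakdown (82.7), and Fibin (82.5). The peaks at Lrrc7 and Fibin were the 2 with a wild-type peak. The eighth peak was intergenic, 36.8 kb from the start of Dennd3, and 68.5% of it was repeat.

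Of the 8 strongest autosomal somKO-only peaks 1 was at a promoter. The strongest, at chr1:93845647-93846858 (percentile 99.0), lay in an intron of D2hgdh, which encodes D-2-hydroxyglutarate dehydrogenase. It was the only one of the 8 with a Rad21 peak in mut. Of these 8 peaks, 7 overlapped a Rad21 peak of somKO and a CTCF peak of wild type, and 4 held the core motif.

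4 of the 8 lay within the same stretch of chromosome 5, around the T-box genes Tbx3 and Tbx5, which pattern limb and heart. They were at chr5:120250997-120254421 (percentile 94.3), chr5:118839929-118841068 (92.1), chr5:119157124-119157730 (87.0) and chr5:119573788-119574489 (84.5), the last at the start of the antisense gene Tbx3os1. Another lay at chr19:59453601-59456076 (percentile 91.6), in Emx2os, antisense to the homeobox gene Emx2. An exception was a peak at chr10:11492066-11492266, 149 kb from Epm2a, which overlapped neither Rad21 list nor the wild-type list.

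Of 21911 protein-coding genes, 17366 had a peak of either list within 10 kb, 6767 a mut-only peak, 5995 a somKO-only peak and 2243 both. At least 3 mut-only and no somKO-only peaks were found at 383 genes, and the opposite at 319. The most mut-only peaks were at Adgrb1, an adhesion receptor gene, where 10 of 21 mut peaks were mut-only and 7 somKO peaks were all shared. None of the 10 held the core motif or a Rad21 peak of either genotype, and their percentiles ran from 0.599 to 32.7.

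Mgll, which encodes monoacylglycerol lipase, had 7 mut-only of 11 mut peaks, and Asap1, an Arf GTPase activator, 7 of 14. Nudt3 had 7 of 13, which are also within reach of its read-through transcript. Gm10717 had 7 of 7, in a stretch of near-identical predicted genes where reads may be placed on the wrong copy. The most somKO-only peaks without a mut-only peak were at Mtus2, which encodes a microtubule-associated protein, with 14 of 38. Spock1, a proteoglycan gene, had 11 of 15, Dnah8, an axonemal dynein gene, 10 of 25, and Gabbr2, a GABA receptor gene, 9 of 15. Dgkh, a diacylglycerol kinase gene, had 8 of 11 and Rbm47, an RNA-binding protein gene, 8 of 14. Some of these genes lie in stretches, described below, where somKO-only peaks were frequent. Dgkh lies on chromosome 14 between 75 and 80 Mb, where 54.1% of somKO peaks were somKO-only. Gabbr2 lies on chromosome 4 between 45 and 75 Mb, where 35.5% were.

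Chromosomes differed widely. X had the lowest mut-only and the highest somKO-only share of the 20 chromosomes compared. Of its 1636 mut peaks 94 were mut-only, or 5.75% (4.72 to 6.98), against 15.3% ± 4.68 (mean ± SD of the 19 autosomes), which is 2.04 SD below. Of its 2059 somKO peaks 565 were somKO-only, or 27.4% (25.6 to 29.4), against 18.2% ± 4.48, which is 2.07 SD above. Against the autosomal median and scaled median absolute deviation, X was 1.74 units below and 1.81 units above. X was thus at the edge of the autosomal spread, and several autosomes were nearly as far out.

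On chromosome 18 the mut-only share was 7.54% and the somKO-only share 25.8%. The reverse was seen on chromosome 15, with 24.9% mut-only and 10.8% somKO-only, and on chromosome 10, with 23.7% and 9.78%. The scores of shared peaks also varied by chromosome. They are given as a description, since the same score set the length cut and with it which peaks are shared. The median log2 ratio of the somKO score to the mut score was 0.73 on X, against 0.13 ± 0.30 over autosomes (2.00 SD above), and ran from -0.38 on chromosome 15 to 0.62 on chromosome 5. For Rad21 it was 1.61 on X, against 1.04 ± 0.30, or 1.94 SD above. The depth of the lists is unknown, so that only differences of this ratio between chromosomes or stretches can be read.

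**Figure D3:**
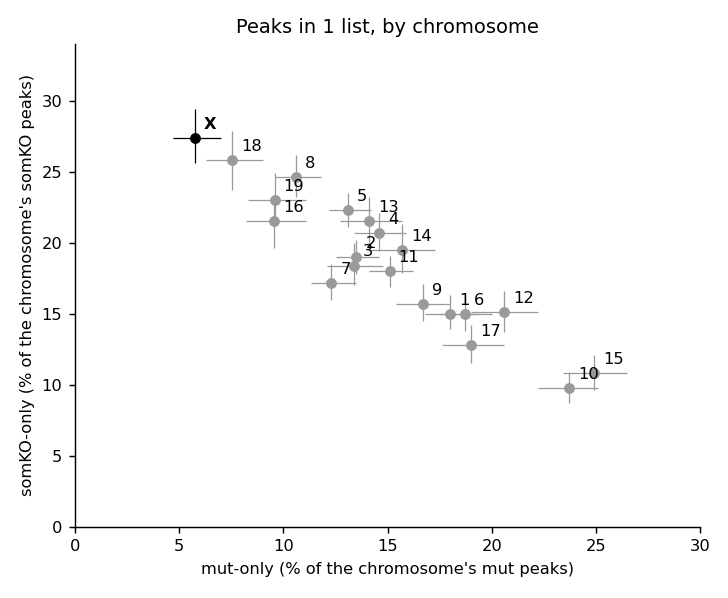
For X and each autosome, the mut-only share of its mut peaks (%, horizontal) against the somKO-only share of its somKO peaks (%, vertical), with 95% Wilson intervals. X lies at the upper left (5.75% and 27.4%) next to chromosome 18, and chromosomes 10 and 15 at the lower right.

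On X the promoter and motif shares of members were close to those on autosomes, while other readouts differed. Promoters held 38.3% of the 94 mut-only peaks (29.1 to 48.4) and 6.90% of the 565 somKO-only peaks (5.09 to 9.30), against 33.8% and 8.34% on autosomes. The core motif was found in 56.8% of somKO-only peaks on X and 58.3% on autosomes. Rad21 of mut overlapped 5.66% of somKO-only peaks on X (4.04 to 7.89) and 12.1% on autosomes (11.5 to 12.8), and Rad21 of somKO 53.3% and 56.2%. Intergenic peaks were 51.3% of somKO-only peaks on X (47.2 to 55.4) and 41.8% on autosomes (40.8 to 42.7), against 51.0% and 36.5% of shared peaks. A wild-type SmcHD1 peak overlapped 13.8% of mut-only peaks on X (8.26 to 22.2) and 2.24% on autosomes, against 7.85% and 2.11% of shared mut peaks. For somKO-only peaks the shares were 2.30% on X and 0.744% on autosomes, against 8.37% and 2.19% of shared somKO peaks.

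SomKO-only peaks were denser on the distal part of X. Proximal to the tandem repeat locus Dxz4, which borders the megadomains of the inactive X, 158 of 882 somKO peaks were somKO-only, or 17.9% (15.5 to 20.6). Distal to it 406 of 1166 were, or 34.8% (32.1 to 37.6). Mut-only peaks were 8.05% and 3.54% of mut peaks on the same sides. The change lay near 85 Mb, a position chosen after the window values were seen. Beyond it 398 of 1102 somKO peaks were somKO-only (36.1%), and 24 of 756 mut peaks were mut-only (3.17%). Before it the shares were 17.5% and 7.95%. The score ratio of shared CTCF peaks was 1.02 beyond that position and 0.34 before it, and that of Rad21 was 2.07 and 1.17. The lists combine reads of all X copies, so that the active and inactive X cannot be told apart. The number of X copies was not measured here, and its part in these shares was not tested.

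The strongest X members were in the middle of the rank. The 5 strongest somKO-only peaks without a mut partner were at percentiles from 55.8 to 69.2, and all 5 had a wild-type CTCF peak and a Rad21 peak of somKO, and none a Rad21 peak of mut. They lay in introns of Rtl4, Hdx and Atrx, the last encoding a chromatin remodeller. One lay 62.2 kb from Rlim, the ubiquitin ligase that activates Xist, and another 13.9 kb from Cited1. The 5 strongest mut-only X peaks stood at percentiles from 36.2 to 54.4. They included promoter peaks at Gdpd2 and inside Arhgap6, and a peak in an intron of Bcor, a Polycomb-linked corepressor. The nearest gene start assigned to the Arhgap6 peak, that of Amelx, was 150 kb off, so its class came from another transcript start.

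Members also grouped in stretches of autosomes. On autosomes and X, 430 windows of 5 Mb had at least 50 peaks in either list. Of these, 180 held more mut-only and 241 more somKO-only peaks. This count does not by itself show grouping, since somKO-only peaks were also the more numerous over all peaks. The median window had 13.9% mut-only and 17.9% somKO-only peaks, near the shares over all peaks. The highest somKO-only share was 54.1% (53 of 98 peaks), on chromosome 14 from 75 to 80 Mb, where 1 of 46 mut peaks was mut-only. The 2 windows before it, from 65 to 75 Mb, held no mut-only peak among 74 and 45 mut peaks, and 48.6% and 46.3% of their somKO peaks were somKO-only.

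From 65 Mb to its end, chromosome 14 held 321 mut and 536 somKO peaks, of which 3.74% were mut-only (2.15 to 6.42) and 42.9% somKO-only (38.8 to 47.1). Before 65 Mb it held 1652 and 1490 peaks, of which 18.0% were mut-only and 11.1% somKO-only. In the distal stretch 218 of the 230 somKO-only peaks overlapped a wild-type peak (94.8%), and the wild-type list held 687 peaks there. Rad21 peaks numbered 311 in mut and 692 in somKO. The score ratio of shared CTCF peaks was 1.25 there and -0.15 before 65 Mb. This stretch was chosen after its values were seen. DNA copy number was not measured in these lists. Its part in this stretch, or in any other chromosome or stretch named here, was not tested. The paper corrected its own expression counts for differences in chromosome copy number.

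Chromosome 4 from 45 to 75 Mb, also chosen after its values were seen, gave 4.05% mut-only and 35.5% somKO-only peaks (234 of 659), with a score ratio of 1.32. Of these somKO-only peaks 68.4% had a wild-type peak. On chromosome 5 a stretch from 118 to 121 Mb, around the T-box genes, was bounded by the strongest somKO-only peaks of that chromosome. Its share follows in part from that choice and is given as a description. There 88 of 204 somKO peaks were somKO-only (43.1%), and the score ratio of shared peaks was 2.61 for CTCF and 3.44 for Rad21. In the same stretch Rad21 peaks numbered 120 in mut and 351 in somKO. The fixed windows from 115 to 120 Mb and from 120 to 125 Mb gave 31.4% and 18.9% somKO-only. The highest mut-only share of a window was 40.9% (27 of 66 peaks), on chromosome 3 from 5 to 10 Mb, where 1 of 42 somKO peaks was somKO-only. The window of chromosome 10 from 80 to 85 Mb held the most mut-only peaks among the 10 windows with the highest share, with 110 of 332 (33.1%).

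**Figure D4:**
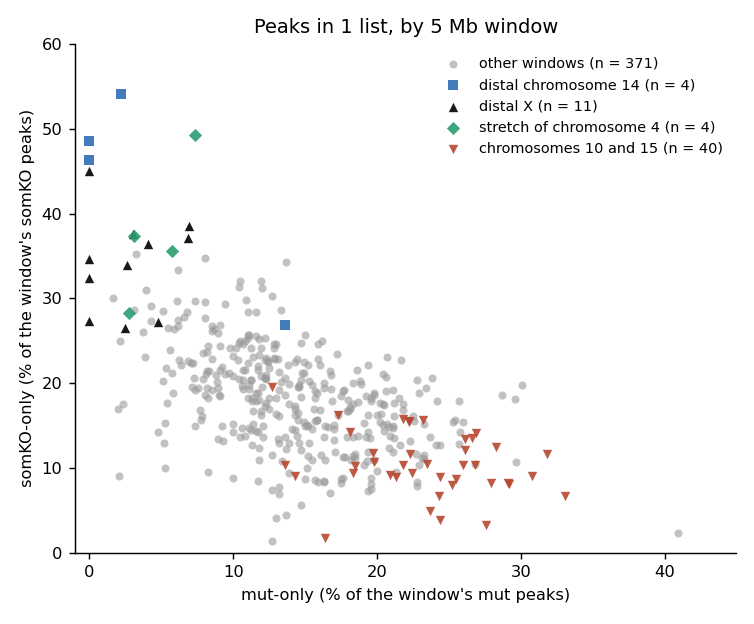
For 430 windows of 5 Mb, the mut-only share of mut peaks (%, horizontal) against the somKO-only share of somKO peaks (%, vertical); marked are windows of chromosome 14, X and chromosome 4 in stretches chosen after seeing the values, and all windows of chromosomes 10 and 15. The window of chromosome 14 from 75 to 80 Mb lies highest (54.1%), and that of chromosome 3 from 5 to 10 Mb farthest right (40.9%).

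Neighbouring sites tended to be of the same kind. After a somKO-only site the next site along the chromosome was somKO-only in 22.8% of cases (22.0 to 23.6), after a shared site in 15.4% (15.1 to 15.8) and after a mut-only site in 11.1% (10.4 to 11.7). After a mut-only site the next was mut-only in 16.1% (15.3 to 16.8), after a shared site in 13.9% and after a somKO-only site in 9.16%. Unbroken runs of at least 5 sites numbered 58 for somKO-only and 7 for mut-only.

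The longest somKO-only run had 12 sites over 234 kb, at chr5:119845049-120079099, and began in Tbx5. The wild-type list held 3 peaks there and mut no CTCF or Rad21 peak. The next had 10 sites over 351 kb at chr14:67248807-67600116, around Ebf2, a transcription factor of mesenchymal and neural lineages. All 5 somKO peaks within 10 kb of Ebf2 held the core motif and overlapped a wild-type peak. A further run of 9 sites on chromosome 5 began at 119308017, between genes. It held 8 wild-type CTCF peaks and 38 Rad21 peaks of somKO, against no Rad21 peak of mut.

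The longest mut-only run, of 8 sites over 33.7 kb at the start of chromosome 9, lay among the predicted genes around Gm10717 and held 4 peaks of the somKO list as deposited. A run of 6 sites over 87.1 kb held Fzd7, a Wnt receptor gene, with 2 mut-only peaks near it, the stronger at percentile 89.2. In this run lay 2 peaks of the somKO list as deposited. The peak at percentile 89.2 overlapped 1 of them, so that it was mut-only only after the length cut. Another run of 6 sites lay over Map2k2, a kinase gene of the ERK pathway, and Zbtb7a, a transcription factor gene. It also held 2 peaks of the somKO list as deposited.

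Members were then counted within 10 kb of genes in 11 lists, which hold genes of interest in fibroblasts and on X. Near all protein-coding genes, 16.7% of mut peaks were mut-only and 16.8% of somKO peaks somKO-only. Hox genes, which set positional identity along the body axis, lay at the mut-only end. Of 55 mut peaks 20 were mut-only, or 36.4% (24.9 to 49.6), and of 35 somKO peaks 1 was somKO-only, or 2.86% (0.506 to 14.5). Promoter peaks of the whole genome lay to the same side. Of them, 3025 were mut-only and 8592 shared in mut, and 880 were somKO-only and 8346 shared in somKO. Whether Hox genes differ from other promoters was not tested. Over each whole cluster, from its first to its last gene and 10 kb beyond, the peaks between genes count too. At the Hoxa cluster, 8 of 19 mut peaks were mut-only, all 8 at promoters and none with the core motif. Of these 8, Rad21 of mut overlapped 6 and Rad21 of somKO 7, while wild type had a CTCF peak at 1. At the Hoxb cluster 11 of 25 mut peaks were mut-only, and Hoxc and Hoxd had 1 each. Hoxa3 and Hoxb3 had the most, with 4 each.

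The mesenchymal position and lineage factors had 47 mut-only of 176 mut peaks, or 26.7% (20.7 to 33.7), and 24 somKO-only of 146, or 16.4%. Runx2, the osteoblast factor, had 5 mut-only of 11 and 2 somKO-only of 8. In the other direction Tbx5 had 3 somKO peaks, Tbx1 had 2 and neither had a mut peak. Imprinted genes had 17 mut-only of 77 (22.1%) and 8 somKO-only of 64 (12.5%), both intervals spanning the shares over all peaks. All 3 mut peaks at Mest, a paternally expressed gene, were mut-only and at promoters, up to percentile 81.9, with no somKO peak after the cut. None of the 3 overlapped a wild-type peak or a peak of the deposited somKO list. Meg3, a maternally expressed RNA gene, had 3 mut-only of 5.

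Collagen and matrix genes had equal shares, 16.4% (23 of 140) and 16.2% (21 of 130). The exceptions pointed both ways. Fn1, which encodes fibronectin, had 4 mut peaks, all mut-only, and no somKO peak after the cut. None of the 4 overlapped a wild-type peak or a peak of the deposited somKO list. Timp3, a metalloproteinase inhibitor gene, had 4 mut-only of 8. Col4a2, a basement membrane collagen gene, had 3 somKO-only and 1 mut-only peak, and Eln, the elastin gene, 2 somKO-only and no mut-only peak.

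Tumour suppressor and DNA damage genes had 7 mut-only of 83, or 8.43% (4.15 to 16.4), and 21 somKO-only of 95, or 22.1% (14.9 to 31.4). Both intervals span the shares over all peaks. Brca1 had 5 somKO-only of 6 peaks, all 5 with the core motif and 4 with a wild-type peak, and 1 mut peak. Rb1, which lies in the distal stretch of chromosome 14, had 4 of 5, and Cdk6 had 3 of 5. SMC and loop extrusion genes had 4 of 51, or 7.84% (3.09 to 18.5), and 14 of 59, or 23.7% (14.7 to 36.0), which also span them. Mau2, a subunit of the cohesin loader, had 4 somKO-only of 5. Smchd1 itself had 1 somKO-only of 3 and no mut-only of 2. No list here measures the SmcHD1 protein in both genotypes, so that its loss was not checked here. The paper examined it in both genotypes by immunofluorescence and western blot. The cell type was not checked either, since expression was not analysed here.

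Genes that escape X inactivation had 2 mut-only of 49 (4.08%) and 21 somKO-only of 65, or 32.3% (22.2 to 44.4), close to the 27.4% of X as a whole. Xist had 4, and Kdm5c, a histone demethylase gene, and Mid1 had 3 each. In the X inactivation centre none of 14 mut peaks was mut-only and 9 of 22 somKO peaks were somKO-only, or 40.9% (23.3 to 61.3). The window of X from 100 to 105 Mb, which holds these genes, gave near shares. There 4.04% of mut peaks were mut-only and 52 of 143 somKO peaks were somKO-only (36.4%). Of the 9 somKO-only peaks in the centre, 4 lay within 10 kb of Xist, the RNA that coats the inactive X, at percentiles from 3.09 to 31.2. They were also within 10 kb of its antisense gene Tsix. At the tandem repeat loci Dxz4 and Firre, 1 of 28 somKO peaks was somKO-only and none of 28 mut peaks was mut-only.

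Clustered protocadherins had 5 mut-only of 60, or 8.33% (3.61 to 18.1), and 8 somKO-only of 59, or 13.6% (7.03 to 24.5). Both intervals span the shares over all peaks, and the somKO-only peaks were in the gamma genes. Cell adhesion and guidance genes, which are long, had 34 of 307 (11.1%) and 53 of 321 (16.5%). Csmd1 had 8 somKO-only of 23 and Cntnap2 and Cdh13 had 7 each. Ptprk had 4 mut-only of 9 and Ctnna3 5 of 21.

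**Figure D5:**
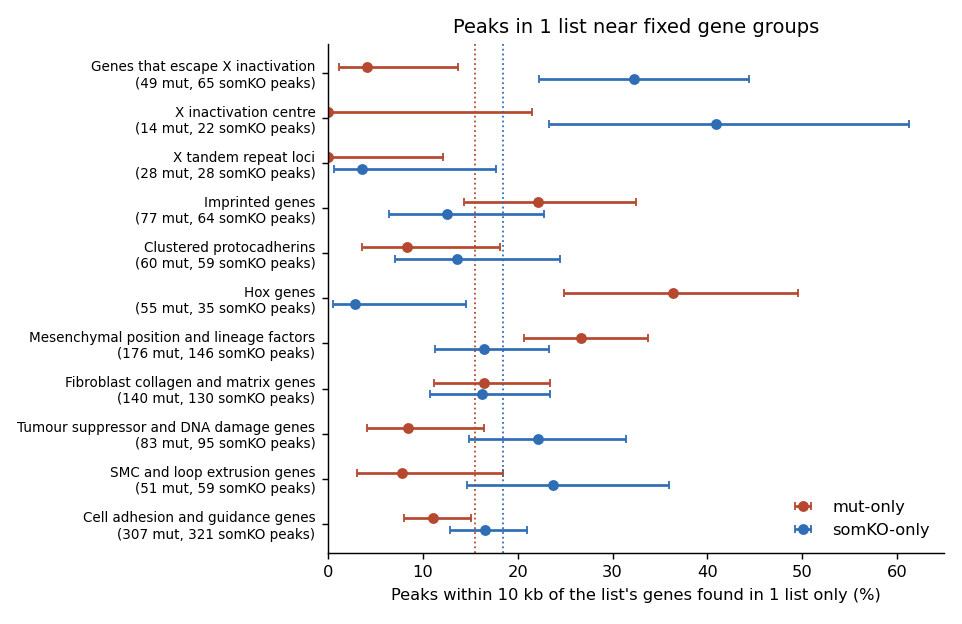
Share of mut peaks that were mut-only and of somKO peaks that were somKO-only (%) within 10 kb of the genes of 11 lists, with 95% Wilson intervals; dotted lines mark the shares over all peaks, 15.5% and 18.4%. Hox genes lie farthest to the mut-only side (36.4%) and the X inactivation centre farthest to the somKO-only side (40.9%).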

How the data were processed

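The lists used hold CTCF peaks of MEFs of 3 genotypes, Rad21 peaks of mut and somKO, and SmcHD1 peaks of wt. Alignment was by Bowtie2 to an mm10 genome masked at strain variants, replicates were then merged, and narrow peaks were called with MACS2 at q under 0.05 on reads of both alleles. Tool versions and the use of inputs in peak calling are not given in the sources used here. The score deposited by the authors for each peak was read as 10 times -log10 q, which is inferred from its lowest value of 13, and was used to rank peaks. The ratio of scores of shared peaks was taken as a log2 value per peak of mut and its strongest partner. No read counts are given, so that the depth is unknown.

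Files counted from 0 were converted to positions from 1. Ties at the length cut were kept in file order. Classes followed the peak's midpoint and GENCODE M21, in the order promoter, untranslated region, coding exon, other exon, intron, intergenic. Motifs, CpG and soft-masked bases were read from RefSeq GRCm38.p6. Named peaks were the 8 strongest autosomal and 5 strongest X members per list without a partner in the other deposited list. Named genes were the 6 with the most members in 1 direction, up to 4 per gene list with the largest imbalance, and those in the 3 longest runs per direction, with ties in length ordered by the highest score rank. Other names were chosen after their values were seen. One gene that met this rule is not reported here. The members, the lists and the rules were chosen with earlier results of these data known. Overlap and motif steps were tested on simulated data. Analyses used numpy 2.4.6, pandas 2.3.3 and scipy 1.17.1 in Python 3.11.15. The Rad21 list of wt and the SmcHD1 list of mut were not used here.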

Additional observations from a re-analysis of the deposited data

How the results depend on the processing

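No paired analysis was possible because each genotype has 1 list of merged libraries, and for the same reason leaving out replicates was not run. In all 7 settings that gave both counts, somKO-only peaks were at least as many as mut-only peaks, and the somKO-only share of X was above the mut-only share. In all 9 settings mut-only peaks were at promoters more often than somKO-only peaks. The core motif was more frequent in somKO-only peaks in 8 of 9 settings. The exception was the short motif, which leaves out core motif sites with A at 1 position and so counts other sites.

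With the lists not cut, mut-only peaks gave 3.61% on X, 31.8% promoter, 29.1% motif and 45.7% Rad21, also with only the counted list cut, and somKO-only peaks numbered 19069, with 37.4%, 10.7%, 50.0% and 47.4%. With overlap of 50% of both peaks each direction held 17031 peaks, mut-only with 33.4% on X, 25.2% promoter, 44.1% motif and 53.2% Rad21, and somKO-only with 47.1%, 11.1%, 62.4% and 67.3%. With scores of at least 50, mut-only peaks gave 37.9% motif and 48.8% Rad21, and somKO-only peaks 24.4% on X and 59.6% Rad21. In the strongest 50% of the list 3003 peaks were mut-only, with 30.4% promoter, 48.1% motif and 83.6% Rad21, and 3278 were somKO-only, with 20.7% on X, 67.7% motif and 90.8% Rad21. Promoters of 2 kb gave 42.2% and 16.0% for mut-only and somKO-only, and protein-coding starts 29.9% and 5.27%. The short motif gave 34.3% and 23.0%, and the motif in the central 200 bp, chosen after seeing the data, 26.4% and 54.1%. Rad21 lists of equal length gave 51.6% for somKO-only. Counting mut peaks from a score of 118, also chosen after seeing the data, left 3879 mut-only peaks, with 3.03% on X, 36.1% motif and 54.4% Rad21. The causes of these shifts were not tested, and reverse order of ties moved no value beyond its interval.

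The size of each direction therefore rests on the cut and on the overlap that counts as shared. Depth is unknown, so that no limit of detection is given for a peak missing from a list. The 2 clones of somKO were merged, and which of them carries a peak is not recorded in its list.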
